A study of Homo sapiens with 2 samples.

Results

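The NUDT21 eCLIP-seq peaks of J-Gamma1 cells were examined in the genes of the DEAD and DEAH box RNA helicases. Members were the 53 protein-coding genes of GENCODE 44, readthrough genes and DDX3Y left out, whose symbol begins with DDX or DHX and a digit, and a peak was given to a gene when its midpoint lay in the gene body. Of the 20499 peaks in the list, 130 lay in these genes, 100 of them in DDX genes and 30 in DHX genes. J-Gamma1 is an established cell line from T-ALL (T-cell acute lymphoblastic leukemia), a derivative of Jurkat. The series held 1 library made with a NUDT21 antibody and 1 input library, both from cells crosslinked with UV-C (254 nm, 400 mJ each time), and then given lysis for 15 min and 40 U of RNase I for 5 min. The input's own data were not analysed here, and the sources used here do not give its role in calling peaks, so the peaks may hold no comparison with it. There was 1 library per group and no replicate, so nothing was tested between conditions. The list gave no read totals and no RNA levels, so the depth of the libraries was unknown, the identity of the line could not be checked, and the part of RNA level in the number of peaks was not tested.

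RNA helicases of the DEAD and DEAH box families use ATP to unwind RNA or to remodel complexes of RNA and protein, and they act at nearly every step from transcription and splicing to ribosome assembly, translation and decay. They share a core of conserved motifs: motif I (the Walker A loop) holds the phosphates of ATP, motif II is the DEAD or DEAH box itself, and motif VI closes the core. NUDT21 is the subunit of cleavage factor I that reads UGUA upstream of poly(A) sites and so takes part in the choice among them.

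The sequences below carry the findings described later, and are given as hg38 reference DNA on the strand of the gene, with T for U. The motif I codons of 7 genes are shown because a peak overlapped each of them. The capitals mark the codons of the loop that holds the phosphates, and the lower-case letters the 3 codons before it.
DDX46, chr5:134784445-134784468, plus strand: gccaaaacaGGAAGTGGAAAGACC
DDX21, chr10:68963371-68963394, plus strand: gcacggacaGGAACTGGGAAGACA
DDX50, chr10:68911148-68911171, plus strand: gcacggacaGGAACAGGAAAGACA
DDX10, chr11:108675685-108675708, plus strand: gccaaaactGGATCTGGCAAGACT
DDX6, chr11:118768281-118768304, minus strand: gcaaaaaatGGAACAGGCAAGAGC
DDX23, chr12:48836177-48836200, minus strand: gctgagactGGCAGTGGCAAGACA
DDX17, chr22:38498446-38498469, minus strand: gctcagactGGCTCTGGGAAGACG

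The next set shows the tallest coding peaks of DDX18 and DHX36, both rich in A and G, the coding peak of DDX46 that begins in the intron before exon 2, the tallest peak of the cluster in intron 11 of DDX17 and the tallest intron peak of all, in DHX32. The DHX36 peak runs past exon 1 into the intron, and 44 of its 71 bases are coding. Capitals mark TGTA, the DNA form of UGUA.
DDX18 exon 2, chr2:117817481-117817688, plus strand: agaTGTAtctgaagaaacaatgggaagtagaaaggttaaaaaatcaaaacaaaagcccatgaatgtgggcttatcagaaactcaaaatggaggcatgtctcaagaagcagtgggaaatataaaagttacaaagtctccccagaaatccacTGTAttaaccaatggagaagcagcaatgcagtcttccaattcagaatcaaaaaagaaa
DHX36 exon 1, chr3:154324147-154324217, minus strand: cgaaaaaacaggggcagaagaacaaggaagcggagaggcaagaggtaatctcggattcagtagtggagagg
DDX46 exon 2, chr5:134763791-134764022, plus strand: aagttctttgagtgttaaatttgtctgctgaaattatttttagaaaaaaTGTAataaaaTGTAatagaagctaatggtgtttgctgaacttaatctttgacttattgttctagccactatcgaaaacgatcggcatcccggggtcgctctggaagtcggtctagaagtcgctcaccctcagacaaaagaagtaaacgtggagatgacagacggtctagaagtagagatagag
DDX17 intron 11, chr22:38490034-38490172, minus strand: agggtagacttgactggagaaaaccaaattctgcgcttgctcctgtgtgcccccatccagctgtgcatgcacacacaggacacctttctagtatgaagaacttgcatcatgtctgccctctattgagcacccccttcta
DHX32 intron 4, chr10:125853154-125853292, minus strand: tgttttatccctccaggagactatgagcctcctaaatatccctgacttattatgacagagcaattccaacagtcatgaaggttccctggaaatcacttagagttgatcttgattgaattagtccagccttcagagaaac

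The last set gives 30 nt around each UGUA in the 3'UTR peaks that lay in the 3'UTR of the canonical transcript (the 1 that Ensembl selects for a gene) and reached 5 or more steps of Score, the height of a peak in whole steps of 0.228. Of 15 such peaks, 6 held a UGUA and 9 held none.
DDX17, chr22:38485220-38485249, minus strand: ttgctgagttttgTGTAtcctttaaattaa
DDX17, chr22:38485695-38485724, minus strand: tggaataacatttTGTAaaaaaaaaaaaaa
DDX21, chr10:68983179-68983208, plus strand: atacctaagggagTGTAacagtctctggag
DDX21, chr10:68984305-68984334, plus strand: tatttgatcaccaTGTActaggagctctga
DDX3X, chrX:41348881-41348910, plus strand: caggttggaaataTGTAcataactgcacaa
DDX42, chr17:63818944-63818973, plus strand: cagccctgagacaTGTAggaaacacctttc

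At least 1 peak lay in 34 of the 53 genes, or 64.2% (exact Clopper-Pearson 95% interval 49.8 to 76.9, which covers counting error only), where 33.4% of all 19383 protein-coding genes held a peak. A peak of 5 or more steps lay in 23 genes, 43.4% (29.8 to 57.7), against 14.4% of all protein-coding genes. A peak in a 3'UTR lay in 16 genes, 30.2% (18.3 to 44.3), against 14.3% of the genes with an annotated 3'UTR. No RNA level, gene length or exon length was set equal between the members and the rest, so these shares do not show anything particular to helicases. None of the 130 peaks had a false discovery rate (FDR) under 0.05, and a count of 0 allows a share of up to 2.31% (3 of 130), while 0.0927% of all peaks did. The FDR was 1 for 129 member peaks, and the lowest was 0.891, in DDX18. The p-values deposited by the peak caller all lay under 0.05, with a largest value of 0.0469 in members and 0.04996 over all protein-coding genes. Nearly all member peaks of 4 or fewer steps held that largest member value, so they sit at the edge of the list. The FDR values conflict with the q-value threshold stated for the peak calling. What the FDR column measures, and what the absence of member peaks under 0.05 means, is not settled here.

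The peaks were concentrated in few genes. DDX17 held 16, DDX46 held 12, DDX10, DDX21 and DDX27 held 8 each, and DDX23, DDX3X and DDX42 held 7 each. The 10 genes with 5 or more peaks held 84 peaks, 64.6% of the total. Ranked over all protein-coding genes, 83 genes had more peaks than DDX17. No peak lay in 19 members: DDX4, DDX19A, DDX19B, DDX25, DDX39A, DDX39B, DDX47, DDX49, DDX51, DDX52, DDX53, DDX56, DDX59, DDX60, DDX60L, DHX8, DHX16, DHX29 and DHX58.

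**Figure D1:**
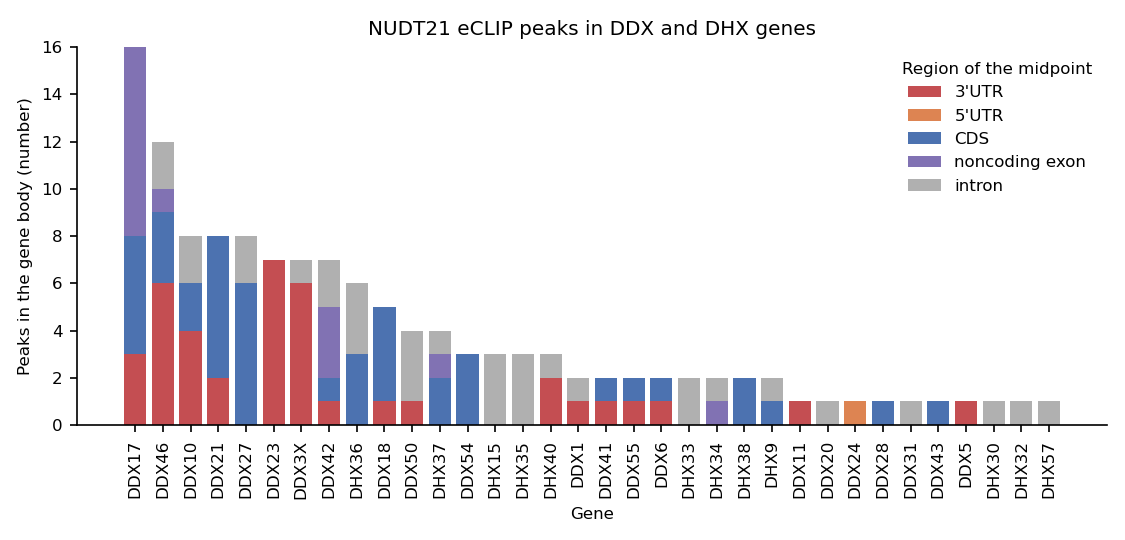
Number of NUDT21 eCLIP peaks (vertical axis) in each of the 34 DDX and DHX genes that held any, coloured by the region of the peak midpoint. DDX17 stands highest with 16 peaks, 8 of them in noncoding exons, while all 7 peaks of DDX23 carry the 3'UTR colour.

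The region of a peak was that of its midpoint over all transcripts of the gene, with a 3'UTR taken before a 5'UTR, CDS, a noncoding exon and an intron in that order. By this order 39 peaks lay in 3'UTRs (30%, 22.3 to 38.7), 43 in CDS (33.1%, 25.1 to 41.9), 14 in noncoding exons (10.8%, 6.01 to 17.4), 33 in introns (25.4%, 18.2 to 33.8) and 1 in a 5'UTR. DDX17 alone held 8 of the 14 in noncoding exons. Over all protein-coding genes the shares were 29.0% in 3'UTRs, 22.5% in CDS, 3.73% in noncoding exons, 41.6% in introns and 3.14% in 5'UTRs. Beside these, the 74 peaks of the HNRNP genes had 58.1% in 3'UTRs and 18.9% in CDS, and the 67 peaks of the SRSF genes, which encode SR splicing factors, had 64.2% and 5.97%.

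The 3'UTR shares rested on the annotation. Of the 39 peaks of the helicase genes, 19 were coding in a different transcript, and 19 were called 3'UTR only through transcripts marked for nonsense-mediated decay. With CDS taken before the 3'UTR, 20 peaks (15.4%, 9.66 to 22.8) were in 3'UTRs and 62 (47.7%, 38.9 to 56.6) in CDS, where all protein-coding genes had 19.9% and 32.3%. The compared sets moved too: in this order the HNRNP peaks had 50% in 3'UTRs and 27.0% in CDS, and the SRSF peaks 46.3% and 23.9%, and on the canonical transcript they had 31.1% and 25.7%, and 37.3% and 22.4%. On the canonical transcript alone, 19 peaks in 11 genes lay in the 3'UTR, 62 in CDS and 48 in none of its exons. Most of these 48 lay in its introns, but those of DDX3X, DDX46 and DHX15 include peaks that lay in no intron of it either. DDX23 was the clearest case, with 7 peaks in the 3'UTR by the main order and 5 of them coding in the canonical transcript.

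Peak heights of the DDX and DHX genes are given side by side, with no test. The median was 8 steps (range 1 to 18) in DDX genes and 3 steps (range 1 to 11) in DHX genes, and 3 steps over all protein-coding genes. A height of 5 or more steps was reached by 82 of 100 DDX peaks (82.0%, 73.1 to 89.0) and 9 of 30 DHX peaks (30%, 14.7 to 49.4). Introns held 15 of the DDX peaks and 18 of the DHX peaks. The low peaks of the DHX genes made up all that was found in 8 of their 12 genes with a peak (19 peaks), against 3 of 22 DDX genes (3 peaks). The median gene body was 28.3 kb for all DDX genes and 48.0 kb for all DHX genes, and the part of gene length in this difference was not tested.

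Height also went with the region. The median was 8 steps in 3'UTRs, 8 in CDS, 7 in noncoding exons and 2 in introns. The value for noncoding exons rested on DDX17, which held 8 of those 14 peaks, of 6 to 15 steps. In the other genes these peaks had 1 or 2 steps, except 1 of 10 steps in DDX46. Of the 33 intron peaks 27 had 4 or fewer steps, and the 6 taller ones lay in DDX10, DDX42, DDX46, DHX9, DHX32 and DHX36. Some of the 6 were intronic by midpoint only. The exonic part of their length was 43.75% in DDX10, 48.1% in DHX9, 32.8% in DHX36 and 23.3% in DDX42, and 0% in DDX46 and DHX32. Over all protein-coding genes the medians were 7, 8, 2 and 1 steps. In the member genes the deposited fold enrichment, which relates signal to local background, had a median of 2.21 and a range of 1.17 to 4.24. It did not rise in proportion to height: the DHX35 peaks of 1, 2 and 3 steps had 1.17, 1.39 and 1.61. It is therefore not read here as height divided by background.

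**Figure D2:**
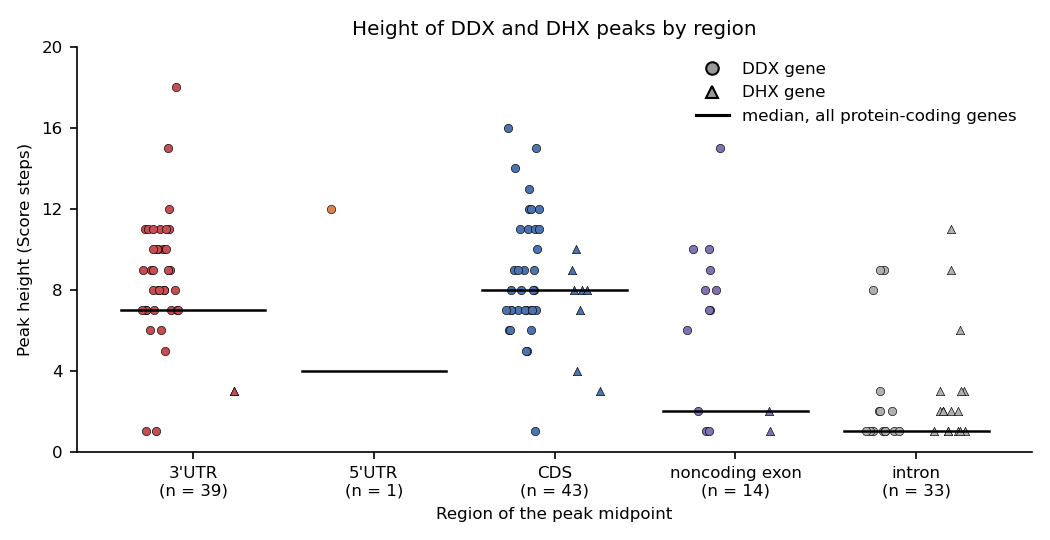
Height of the 130 peaks in Score steps (vertical axis, 1 step being 0.228 of Score) by the region of the midpoint, with circles for DDX genes, triangles for DHX genes, a small random sideways shift, and a black line at the median of all protein-coding genes for that region. The tallest point, at 18 steps, is the single peak of DDX5, and most of the triangles in introns lie at 3 steps or fewer.

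Among the helicases of transcription and RNA processing, all 5 genes held a peak, 22 in all. The counts of this and the following role lists stand beside 34 of 53 members and 33.4% of all protein-coding genes with a peak. DDX17 (p72) and DDX5 (p68) are close paralogs that act as coregulators of transcription, in splicing and in microRNA processing, and they stood at the ends of the range in number of peaks. DDX17 had 16 peaks, every one of 6 or more steps, and DDX5 had 1. The DDX5 peak was the tallest of all members at 18 steps, yet its fold enrichment was 2.13. It spanned chr17:64499958-64500012, which is coding sequence of exon 13 in the canonical transcript and 3'UTR in 7 transcripts marked for decay.

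In DDX17, 8 of the 16 peaks lay in intron 11 of the canonical transcript, between positions 38488730 and 38492027 of chromosome 22. All 8 were inside 1 exon of the noncoding transcript DDX17-201, annotated as a retained intron. Their heights, from the 5' end of the transcript on, were 7, 6, 9, 8, 10, 7, 15 and 8 steps, with fold enrichments from 1.97 to 3.73. They covered 891 nt of the 3940 nt intron, or 22.6%. Each stood above the median of 2 steps for peaks in noncoding exons of all protein-coding genes, and 0 of these genes had more such peaks than DDX17. UGUA was present in 2 of the 8. The tallest, at 15 steps, is printed above and holds none.

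The other 8 peaks of DDX17 lay in coding exons and the 3'UTR. Exon 2 held 1 of 15 steps and exon 4 held 1 of 12 steps over the motif I codons. Exon 12 held 2, of 11 and 12 steps, on the side of intron 11 toward the 3' end, and exon 13 held 2 coding peaks, of 9 and 12 steps. The 3'UTR held 2 of 11 steps each, 187 and 672 nt after the stop codon by their midpoints, and each had 1 UGUA. Intron 11 and the exons around it thus held peaks of overlapping height, 6 to 15 steps in the intron and 9 to 15 steps elsewhere.

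**Figure D3:**
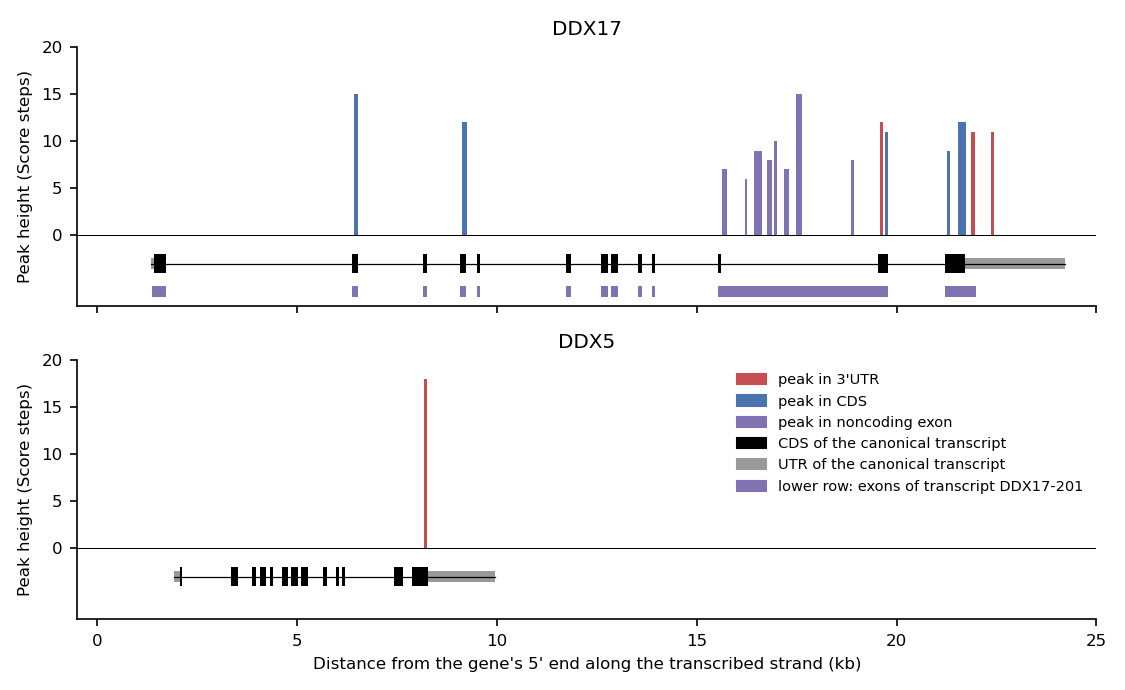
Peaks of DDX17 (top) and DDX5 (bottom) as bars along the gene, with height in Score steps on the vertical axis and distance from the 5' end of the gene in kb on the horizontal axis, drawn to 1 scale. Below the bars, black and grey boxes give the canonical transcript and purple boxes the exons of DDX17-201, whose long exon spans all 8 purple peaks, while DDX5 has its 1 peak of 18 steps at the end of the coding sequence.

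The remaining genes of this role had few peaks. DDX1, a part of the tRNA ligase complex, had a peak of 11 steps and 3.20-fold in exon 17 and 1 of 1 step in intron 1. DHX9 (RNA helicase A) had a coding peak of 8 steps in exon 15 and a peak of 9 steps with its midpoint in intron 20, 48.1% of it exonic. DDX20 (Gemin3), of the SMN complex, had a single intron peak of 1 step.

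Spliceosomal helicases held 36 peaks in 7 of 9 genes. DDX46 is the homolog of yeast Prp5, which acts on the U2 snRNP at the branch site, and it had 12 peaks, of which 9 reached 5 or more steps. The tallest, at 12 steps and 3.56-fold, ran from intron 1 into exon 2, and 51.3% of its length was exonic. Both UGUA copies in it lie before the exon, as the printed sequence shows. The other coding peaks of DDX46 stood at 6, 5, 9, 9 and 9 steps in exons 1, 7, 10, 15 and 19. Away from the coding sequence, DDX46 had peaks of 10 steps in intron 17 and 9 steps in intron 22, and its 2 peaks in the canonical 3'UTR were of 1 step each. A peak of 11 steps far downstream lay in the 3'UTR of a decay transcript of DDX46 and also in the gene C5orf24 on the same strand, so it cannot be given to DDX46 alone.

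DDX23, the homolog of yeast Prp28 in the U5 snRNP, had 7 peaks, all exonic and none with a UGUA. Their heights were 15, 10, 10, 7 and 11 steps in exons 10, 11, 13, 14 and 17, and 8 steps each for the pair in the canonical 3'UTR, 415 and 519 nt after the stop codon. The pair lies 298 and 194 nt before the end of the mRNA, and 194 nt was the shortest such distance among the 19 peaks in canonical 3'UTRs. DDX42, an ATPase that associates with the U2 snRNP, had 7 peaks, 3 of them tall. These were 8 steps with the midpoint in intron 8 (23.3% exonic), 7 steps in the coding part of exon 18 and 8 steps in the 3'UTR. The 3 DDX42 peaks in intron 7 stood at 1 or 2 steps. DDX41, which is mutated in inherited myeloid neoplasms, had coding peaks of 10 and 8 steps. DHX38 (Prp16), which acts before the second step of splicing, had coding peaks of 8 and 7 steps. DHX15 and DHX35 had 3 intron peaks each, none above 3 steps, and DHX8 and DHX16 had no peak.

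The helicases of ribosome biogenesis, the longest of the role lists, held 42 peaks in 10 of 15 genes, and 24 of these were in CDS. This was the largest total but not the largest for the number of genes, since transcription and RNA processing held 22 peaks in 5 genes and the spliceosomal list 36 in 9. Of all members, 34 of 53 genes held a peak. DDX18, a nucleolar helicase, had the highest fold enrichment of all members. Its peak in exon 2 reached 16 steps and 4.24-fold with a p-value of 3.28e-06 as deposited, and 64.4% of its 208 bases are A or G. Further coding peaks stood at 11, 7 and 8 steps in exons 3, 7 and 14, and 1 of 7 steps lay 106 nt after the stop codon. DDX21, which links transcription and processing of ribosomal RNA, had 8 peaks, all exonic, of 6 to 14 steps. They fell in exons 2, 4 and 5 and in the last exon, 15, where a coding pair of 9 steps each was followed by 3'UTR peaks of 10 and 6 steps, each with a UGUA.

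DDX10 had 6 exonic peaks of 7 to 11 steps and a peak of 9 steps with its midpoint in intron 1, 43.75% of it exonic. DDX27 had 6 coding peaks of 6 to 9 steps in exons 10, 11, 14, 15, 16 and 17, and with 2.33 exonic peaks per kb of its canonical mRNA it was the densest member, followed by DDX23 at 2.15, DDX10 at 1.87, DDX21 at 1.72 and DDX17 at 1.68. The list has no strand, and 3 of the DDX27 peaks also lie in ZNFX1 on the opposite strand. DDX24 had the only 5'UTR peak of the members, with 12 steps and 3.41-fold in exon 1. DDX54 had coding peaks of 5, 11 and 7 steps, DDX55 had 8 and 5 steps on either side of its stop codon, and DHX37 had 4 peaks of at most 4 steps.

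The genes of translation, decay and G-quadruplex unwinding held 17 peaks in 4 of 5 genes. DDX3X, which helps ribosomes through structured leaders, had 4 peaks in the canonical 3'UTR of 7, 11, 7 and 8 steps, from 548 to 1938 nt after the stop codon, and coding peaks of 8 and 7 steps in exons 7 and 13. Of the 4 peaks, the tallest alone held a UGUA. DHX36, which resolves G-quadruplexes, had coding peaks of 10, 9 and 8 steps in exons 1, 3 and 10. DDX6, which acts in decapping and in P-bodies, had a coding peak of 7 steps and a 3'UTR peak of 9 steps, 2564 nt after the stop codon, the farthest of the members. The DHX34 peaks were of 1 and 2 steps.

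The mRNA export genes (DDX19A, DDX19B, DDX25, DDX39A, DDX39B) and the antiviral genes (DDX60, DDX60L, DHX58) had no peak, 0 of 5 and 0 of 3 genes. With 33.4% of all protein-coding genes holding a peak and no RNA level known, counts this small do not set these lists apart. Of the germline genes only DDX43 held a peak, of 1 step. The mitochondrial DDX28 had a coding peak of 7 steps that also lies in DUS2 on the other strand, and DHX30 had an intron peak of 1 step. DDX11, a DNA helicase with near-identical copies in the genome, had a coding peak of 10 steps, which is uncertain because reads of the copies may not be separable. DHX32 had the tallest intron peak at 11 steps and 2.94-fold, which also lies in BCCIP on the opposite strand. In all, 9 member peaks in 7 genes lay in another gene as well.

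Helicases of the same superfamily with other symbols were looked at beside the members. SNRNP200, the homolog of yeast Brr2, had 11 peaks, all exonic, of 6 to 13 steps. MTREX, the helicase of the nuclear exosome, had 8 peaks, 1 of them exonic. TDRD9 had 2 peaks of 1 step, RIGI had 1 of 1 step and YTHDC2 had 1 of 6 steps. The translation initiation factor genes EIF4A1, EIF4A2 and EIF4A3, and also IFIH1 and SKIC2, had none.

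The coding peaks were set on the canonical proteins to see which part of the helicase they encode. Motifs I, II and VI were found in the translated canonical CDS by script. Of 61 coding peaks in 22 genes where both ends of the core were found, 18 lay before motif I, 22 (36.1%, 24.2 to 49.4) between motifs I and VI and 21 after motif VI. The core made up 40.0% of the coding length of these genes. In the main order, where 43 peaks count as CDS, 12 (27.9%, 15.3 to 43.7) lay in the core, which was 37.4% of the coding length. Both intervals include the share of length.

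Motif I codons were overlapped by a peak in 8 of 23 genes (34.8%): DDX3X, DDX6, DDX10, DDX17, DDX21, DDX23, DDX46 and DDX50. Motif II was overlapped in 2 genes, DDX18 and DDX41, and motif VI in 1 of 22, DDX17. In the same proteins a peak touched 11.4% of all stretches of 8 residues, the length of motif I, and 10.1% of all stretches of 4 residues, the length of motif II. Counted in blocks of 10 residues over the 23 proteins, coverage was 27.8% from the start of motif I, 22.2% and 19.6% in the blocks after it, and 8.26% from residue 30. Coverage was of a like size upstream of motif I, with 29.0% from residue -70, 24.8% from residue -60 and 23.1% from residue -150, so motif I was not the only covered stretch. The count on motif I was seen in these data and then counted, so it is a description with no test. None of the 8 genes is a DHX gene, and the 4 DHX genes with coding peaks had none on motif I.

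**Figure D4:**
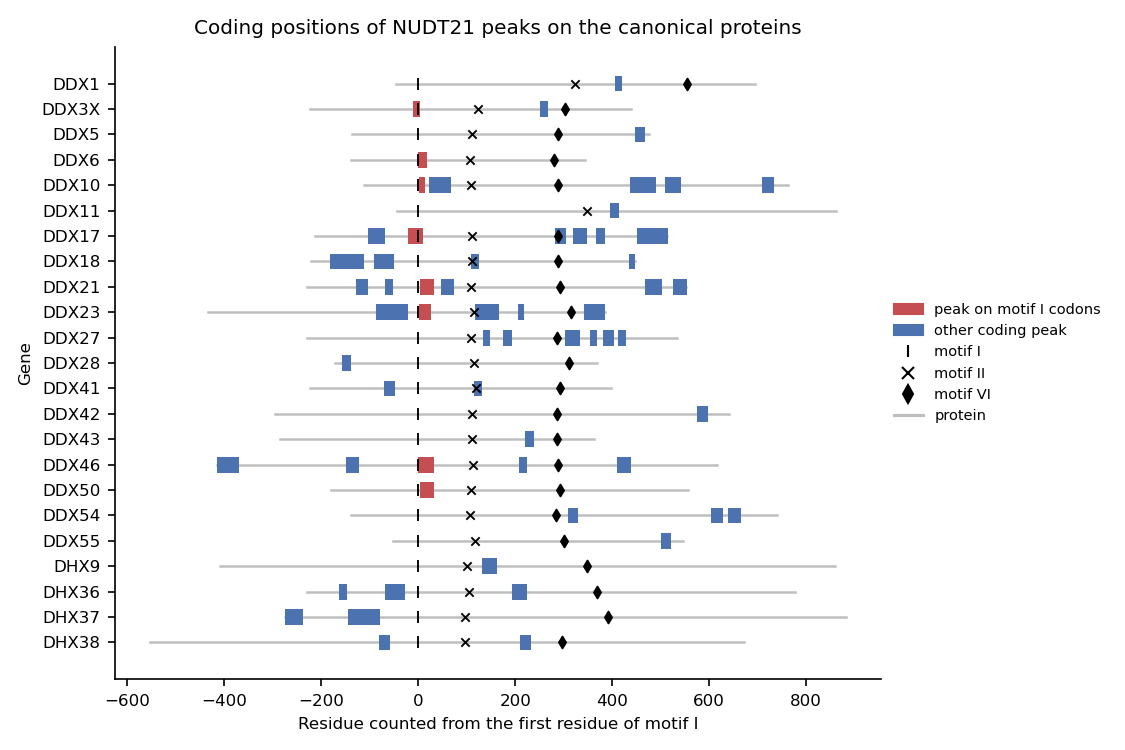
Canonical proteins of the 23 genes with coding peaks as grey lines, with residues counted from the first residue of motif I on the horizontal axis, coding peaks as blocks, and motifs I, II and VI as a tick, a cross and a diamond. The 8 red blocks overlap motif I, and blue blocks on the crosses are seen in DDX18 and DDX41 only.

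The motif I peaks were of moderate height: 14 steps in DDX21, 12 in DDX17, 10 in DDX23, 9 in DDX46, 8 in DDX3X and DDX10, 7 in DDX6 and 6 in DDX50. The overlap was complete, 24 of 24 nt, in DDX46 and DDX17, and 22 nt in DDX6, 17 in DDX10, 16 in DDX23, 14 in DDX21 and 13 in DDX50. In DDX3X the codons span a splice junction, and no sequence is printed for it. DDX21 and DDX50 are neighbouring paralogs on chromosome 10, and their motif I peaks lay 52.1 kb apart in exons of 179 nt each. The peaks began 10 and 11 nt after the start of the motif. From the shared start, 64 of 95 bases (67.4%) were the same in both genes, and the longest identical run was 11 nt. The paralog pair DDX17 and DDX5 differed here, since DDX5 had no peak on its motif I.

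A and G made up 60.7% of the 3487 coding bases in CDS peaks and 55.4% of the coding bases of the same genes outside every peak, a difference of 5.26 percentage points (3.62 to 6.89, from the binomial interval of the bases in peaks, which treats bases as independent). Over all protein-coding genes the same difference was 1.29 points, 54.5% against 53.2%. With CDS defined by the canonical transcript it was 4.39 points in the members and 1.61 points in all genes. By gene, the share was higher in peaks in 16 of 23 and lower in 7, with a median difference of 3.05 points. DHX36 had the largest, with 70.2% against 55.1%, and DHX9 the lowest, with 43.96% against 53.7%. DDX18 had 64.5% against 52.9%, whereas DDX46, whose whole coding sequence is rich in A and G, had 60.2% against 61.2%, and DDX23 had 53.4% against 59.8%.

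**Figure D5:**
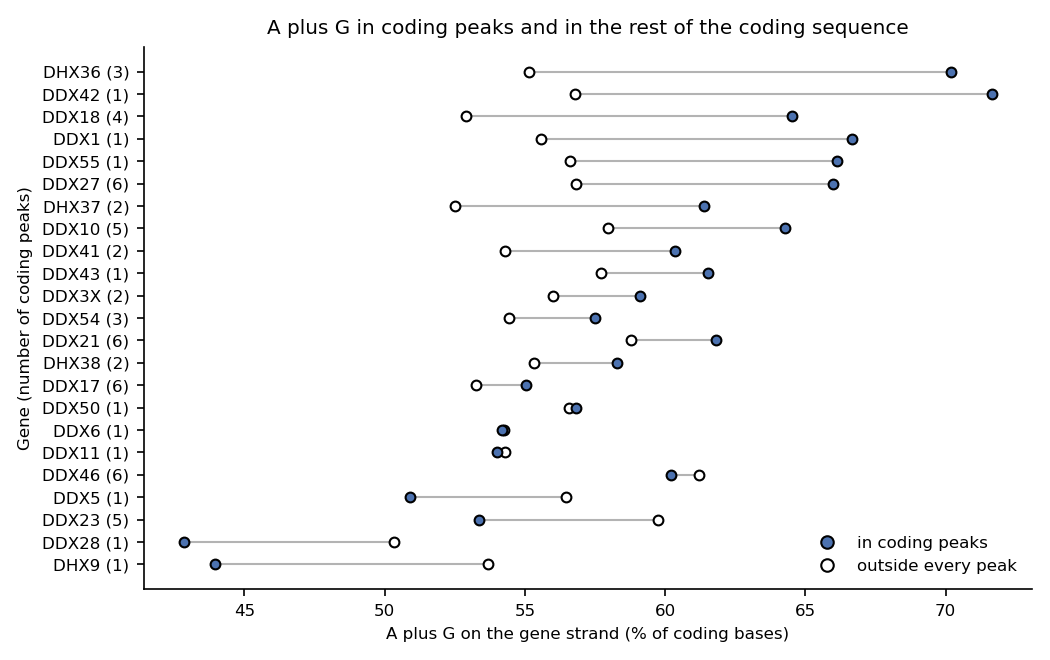
Share of A plus G among coding bases (horizontal axis, percent) in coding peaks (filled points) and in the canonical CDS outside every peak (open points) for each of 23 genes, ordered by the difference, with the number of coding peaks in parentheses. The filled point lies to the right in 16 genes, from DHX36 down, and to the left in 7.

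UGUA (searched as TGTA on the strand of the gene) was counted in the peaks of each region. It occurred in 9 of 39 peaks in 3'UTRs (23.1%, 11.1 to 39.3), 5 of 43 in CDS (11.6%, 3.89 to 25.1), 6 of 14 in noncoding exons (42.9%) and 22 of 33 in introns (66.7%, 48.2 to 82.0). Over all protein-coding genes 40.8% of 3'UTR peaks, 20.9% of CDS peaks, 50.9% of peaks in noncoding exons and 60.7% of intron peaks held it. Peak length moved with these shares, since the median was 74 nt in 3'UTRs, 75 nt in CDS and 292 nt in introns. Per kb of peak the density was 2.78 in 3'UTRs, 1.86 in CDS, 4.07 in noncoding exons and 5.78 in introns. Over all protein-coding genes it was 4.81, 2.31, 4.15 and 4.69 in the same order. On the opposite strand the densities were 4.17, 1.86, 4.48 and 4.07 in members. Those of all protein-coding genes on that strand were 3.75, 2.96, 3.33 and 3.77.

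In the 3'UTRs of the 16 genes, density was 2.78 per kb in peaks (10 in 3601 nt) and 4.78 per kb outside them (247 in 51680 nt), a ratio of 0.581 (0.275 to 1.09, exact and for counting error only). On the opposite strand the ratio was 1.12 (0.615 to 1.90). Over all protein-coding genes the ratio was 0.937 (0.907 to 0.968) on the strand of the gene and 0.901 (0.869 to 0.935) on the opposite strand. The member interval on the strand of the gene includes 1. At this number of motifs neither more nor less UGUA in member peaks was therefore detectable. This call rested on DDX17: without it the ratio was 0.495 and the interval (0.211 to 0.992) lay below 1. With coding sequence left out of the 3'UTRs the ratio was 0.723 (0.325 to 1.40), from 9 motifs in 1909 nt of 20 peaks.

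The peaks in canonical 3'UTRs lay away from the annotated ends. Of 19, 0 were within 150 nt of the end of the canonical mRNA, and the median distance was 1069 nt (range 194 to 2310). The median distance from the stop codon was 580 nt (range 32 to 2564), and 7 were within 500 nt. Against the ends of any transcript of the gene, decay transcripts included, 17 of the 39 peaks in 3'UTRs were within 150 nt. No share over all protein-coding genes is given beside these counts, so they do not show anything particular to helicases.

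Some low peaks came in pairs at a fixed distance. In the whole list 2000 pairs of neighbouring peaks had starts 476 nt apart, the commonest distance, and 4 such pairs lay in members: in DHX36, DHX37, DHX40 and DDX42. Of these 8 peaks 7 had 4 or fewer steps. They include both 3'UTR peaks of DHX40, of 3 steps each, and 2 of the 3 peaks in intron 7 of DDX42.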

How the data were processed

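The data analysed were 1 peak list from 1 NUDT21 antibody library of J-Gamma1 cells, grouped by the treatment label. The authors trimmed reads with fastp, removed duplicates by unique molecular identifier and ribosomal RNA reads, mapped the rest to hg38 and called peaks with MACS2 (bandwidth 50, mfold 2 to 50, local windows of 1000 and 10000 nt, 1 duplicate kept, q-value 0.05). The aligner and the control used for peak calling are not given in the sources used here. The deposited fold enrichment relates signal to the local background but did not rise in proportion to Score. The deposited p-value and FDR are those of the peak caller. The deposited Score is a signal in whole steps of 0.228, found from its values to within 0.00497. Without strand, a peak was given to a gene by position alone. Depth was unknown.

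Gene and motif positions came from GENCODE 44 and the hg38 reference. Regions were assigned by peak midpoint, shares were given exact Clopper-Pearson 95% intervals, and UGUA and base shares were counted on the strand of the gene. No p-value was computed, because neither peaks nor genes are replicates. Alternatives were an FDR under 0.05, a fold enrichment of at least 2, at least 5 steps, any overlap, CDS before 3'UTR, 1 transcript per gene, extension by 50 nt and the central 50 nt. The omission of DDX17, of peaks in another gene and of peaks 476 nt apart was added after seeing the data. Region assignment and motif counting were tested on simulated data. The members, role lists and named genes were chosen with earlier results of these data known. Named in full were the 10 genes with most exonic peaks, ties included, the genes of the 12 tallest peaks and the tallest peak of each region. The tools were pysam 0.24.0, biopython 1.88, scipy 1.17.1, pandas 2.3.3, numpy 2.4.6 and matplotlib 3.10.9 in Python 3.11.15.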

Additional observations from a re-analysis of the deposited data

How the results depend on the processing

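Over 9 results and their alternatives, 50 values stayed near the main one (counts within 1.5 times, shares and ratios inside the main interval) and 15 moved. The limit for counts is wide. A fall from 34 to 23 genes with a peak at 5 or more steps stayed within it. So did a fall from 16 to 11 genes with a 3'UTR peak when CDS took precedence. At an FDR under 0.05 there were 0 peaks, 0 genes with a peak and 0 genes with a 3'UTR peak, so shares and ratios could not be given. At a fold enrichment of at least 2 there were 81 peaks in 22 genes, with 39.5% in 3'UTRs, 42.0% in CDS and 7.41% in introns. At 5 or more steps CDS held 43.96% and introns 6.59%. With CDS in precedence 3'UTRs held 15.4% and CDS 47.7%. With 1 transcript per gene they held 14.6% and 47.7%, and 36.9% of the peaks lay in no exon of that transcript. The omission of DDX17, of peaks in another gene or of peaks 476 nt apart, chosen after seeing the data, moved none of the 9 results beyond these limits. The share of peaks in noncoding exons was not among the 9 results. The UGUA ratio ran from 0.464 to 0.790 over all alternatives, and without DDX17 alone among them its interval (0.211 to 0.992) fell below 1. The purine difference ran from 4.30 to 6.14 points. The cause of each change was not tested. No paired analysis was possible because there was 1 library per group.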
